A study of Mus musculus with 4 samples.

Results

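The genes described here are 58 mouse genes for enzymes and cofactors that modify chromatin, examined for the binding of SHP (NR0B2) in liver. They were chosen by name and grouped by the activity of their products into 21 writers, 26 erasers, 7 remodellers and 4 corepressors. All 58 were found in the GENCODE M1 annotation, which has 22380 protein-coding genes on the build of the peaks (mm9). A peak was assigned to a gene when its interval lay within 5 kb of the gene body, and it was called a peak at the gene's own transcription start site (TSS) when its summit lay within 1 kb of any annotated TSS of that gene. Of the 58 genes, 33 had a peak in at least 1 of the 2 lists and 25 had none. Such a peak was found for 4462 of the 22380 protein-coding genes and for 3722 of 10940 with a CpG-rich TSS, as defined below.

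SHP is a nuclear receptor with no domain for contacting DNA itself, and other proteins hold it on chromatin. FGF19 is an intestinal hormone, released after feeding, that lowers bile acid synthesis in the liver. Writers add methyl, acetyl or ubiquitin groups to histones or methyl groups to DNA, erasers take such groups off, remodellers use ATP to move nucleosomes, and corepressors bring these enzymes to transcription factors. SHP represses its targets by recruiting several such enzymes, so some members encode proteins that work with SHP, and the peaks described here lie at the genes for these proteins.

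Male C57BL/6 wildtype mice of 8 to 12 weeks were fasted for 12 h, given FGF19 (1 mg/kg) or vehicle through the tail vein, and their livers were taken 2 h later. Chromatin was precipitated with the SHP antibody sc-30169 and the material of 3 separate mice was then combined, which gave 1 ChIP library and 1 input library per group. No replicates exist, so no test between groups can be made, and all intervals below cover counting error only. The ChIP libraries held 15473647 tags with vehicle and 13444078 with FGF19 after filtering, and the lists held 1508 and 3155 peaks. The lists hold no expression values, so the tissue could not be checked against marker genes.

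Short motifs were searched within 100 bp of each summit on both strands. They were the YY1/SRE core AANATGGC, the NRF1 core GCATGCGC, the ZBTB33 core CTCGCGAG, the SP1 core CCCCGCCCC, the ETS core CCGGAAG and the nuclear receptor half-site AGGTCA. The NF-Y core was searched in the form ATTGGC alone, so other forms, such as the attggt in the Hdac1 sequence below, were not counted. Matches to different motifs may overlap. Sequences around 7 member summits are shown because they carry the features taken up below. Each is the longest stretch outside annotated exons within 100 bp of the summit, or within 150 bp for Yy1, read 5′ to 3′ on the strand of the gene from mm9, with motif matches in capitals. The Yy1 stretch (chr12:110032302-110032587, + strand, first intron) was bound in both lists and is rich in YY1/SRE cores. The Chd4 stretch (chr6:125045827-125045998, + strand, upstream of the gene) lay in the vehicle peak, with its downstream end also in the FGF19 peak, and has an SP1 core that only the vehicle peak covers. The Hdac1 stretch (chr4:129219958-129220150, - strand, upstream) has an NRF1 core, the Sin3a stretch (chr9:56924650-56924850, + strand, intron) is under the highest member pileup and has an SP1 core, and the Suz12 stretch (chr11:79806516-79806607, + strand, upstream) has an NF-Y core. The Bap1 stretch (chr14:32064554-32064674, + strand, upstream) has a high fold enrichment and none of the motifs. The Kdm2b stretch (chr5:123464787-123464987, - strand, intron) is around a vehicle summit and has the sole half-site found within 100 bp of a summit at a member's TSS, outside the interval of the peak itself.
Yy1: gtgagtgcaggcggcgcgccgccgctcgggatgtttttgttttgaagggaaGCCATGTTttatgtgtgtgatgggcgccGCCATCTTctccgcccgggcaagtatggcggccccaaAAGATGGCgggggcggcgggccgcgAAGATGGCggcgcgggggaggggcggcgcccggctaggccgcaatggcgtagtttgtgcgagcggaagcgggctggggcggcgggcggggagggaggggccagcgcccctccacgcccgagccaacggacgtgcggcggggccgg
Chd4: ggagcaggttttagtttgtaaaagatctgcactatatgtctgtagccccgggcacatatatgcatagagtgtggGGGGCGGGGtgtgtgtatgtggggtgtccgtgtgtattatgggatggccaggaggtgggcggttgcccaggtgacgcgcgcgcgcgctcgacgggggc
Hdac1: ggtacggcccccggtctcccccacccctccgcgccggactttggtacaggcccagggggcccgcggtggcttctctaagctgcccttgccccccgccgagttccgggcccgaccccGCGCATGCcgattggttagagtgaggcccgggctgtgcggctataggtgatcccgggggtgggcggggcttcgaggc
Sin3a: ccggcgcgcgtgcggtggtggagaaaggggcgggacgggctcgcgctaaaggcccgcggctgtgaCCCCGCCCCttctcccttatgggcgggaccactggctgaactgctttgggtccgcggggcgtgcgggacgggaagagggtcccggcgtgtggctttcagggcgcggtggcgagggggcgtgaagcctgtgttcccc
Suz12: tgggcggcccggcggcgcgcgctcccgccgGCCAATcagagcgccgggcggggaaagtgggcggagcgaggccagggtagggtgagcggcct
Bap1: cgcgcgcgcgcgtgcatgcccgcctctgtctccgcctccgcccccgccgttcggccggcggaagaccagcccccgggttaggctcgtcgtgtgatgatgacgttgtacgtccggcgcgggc
Kdm2b: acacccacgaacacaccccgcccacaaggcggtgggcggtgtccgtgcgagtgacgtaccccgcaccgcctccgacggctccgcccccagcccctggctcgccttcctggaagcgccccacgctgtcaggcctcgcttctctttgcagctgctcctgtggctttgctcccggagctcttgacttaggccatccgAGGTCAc

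Peaks at the members were more frequent in the FGF19 list than in the vehicle list, and in both lists they were more frequent than at protein-coding genes at large. Within 5 kb of the gene body, 10 of 58 members (17.2%) had a vehicle peak, beside 7.93% of all protein-coding genes. In the FGF19 list the count was 27 of 58 (46.6%), beside 16.3% of all protein-coding genes. At their own TSS, 8 members (13.8%) had a vehicle peak and 22 (37.9%) an FGF19 peak, beside 5.52% and 12.5% of all protein-coding genes. The FGF19 count was 2.75 times the vehicle count for members at their own TSS and 2.26 times for all genes, so genes at large showed a step of similar size between the lists. In whole liver, fewer cells with bound SHP and less SHP per cell cannot be told apart.

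The members differ from other genes in ways that bear on these shares. A TSS was called CpG-rich when the 500 bp on either side held at least 50% GC and a CpG ratio of observed to expected of at least 0.6. Of the members, 51 had such a TSS, beside 48.9% of all protein-coding genes, and their gene models had a median length of 35735 bp beside 15420 bp and a median of 5 distinct TSS beside 2. Among genes with a CpG-rich TSS, the background within 5 kb was 12.8% with vehicle and 28.0% with FGF19, and at the own TSS it was 10.3% and 23.9%. Of the 51 members with a CpG-rich TSS, 6 (11.8%) had a vehicle peak at their own TSS, near that background, and 22 (43.1%) an FGF19 peak, above it. Among the 1508 FGF19 peaks of highest -log10 q-value, 11 members (19.0%) kept a peak at their own TSS, beside 5.98% of all genes. With only peaks of a -log10 q-value of at least 5, the FGF19 count was 12 members (20.7%) beside 6.79%, while the vehicle count fell to 1 member (1.72%) beside 2.71%, so the vehicle excess was absent among the stronger peaks.

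**Figure D1:**
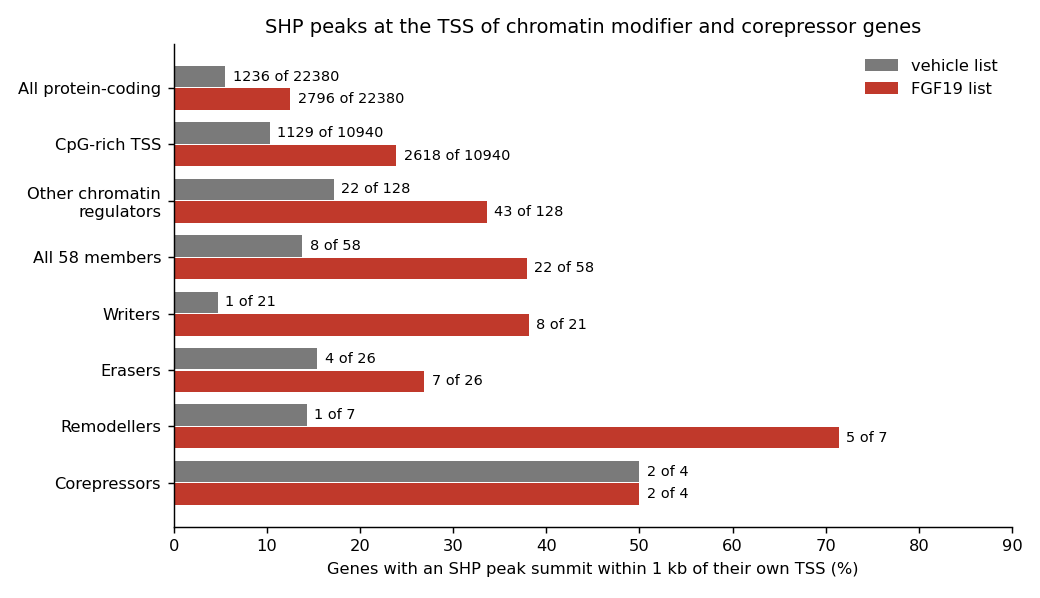
Share of genes (%, horizontal axis) with a peak summit within 1 kb of their own TSS in the vehicle list (grey) and the FGF19 list (red), for all protein-coding genes, genes with a CpG-rich TSS, other chromatin regulators, the 58 members and the 4 classes, with counts beside the bars. The FGF19 bar was longer than the vehicle bar in every group of genes except the corepressors, where both stood at 2 of 4.

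The classes differed in how many genes carried a peak, on small numbers. Among writers, 1 of 21 (4.76%) had a vehicle peak at its own TSS and 8 (38.1%) an FGF19 peak. Among erasers the counts were 4 and 7 of 26 (15.4% and 26.9%). Among remodellers they were 1 and 5 of 7 (14.3% and 71.4%), and among corepressors 2 and 2 of 4. The vehicle and FGF19 shares were 5.52% and 12.5% over all protein-coding genes, and 10.3% and 23.9% over those with a CpG-rich TSS. The vehicle share of writers was thus under that of all genes, and the FGF19 share of erasers was near the CpG-rich share. No class had more genes with a vehicle than with an FGF19 peak. A set of 10 members (Hdac1, Hdac3, Kdm1a, Ehmt2, Sin3a, Smarca2, Smarca4, Sirt1, Gps2 and Ncor1) was listed from general knowledge, not from the files, as encoding partners of SHP. Of these, 8 had an FGF19 peak within 5 kb, beside 16.3% of all protein-coding genes and 28.0% of those with a CpG-rich TSS, and for Hdac3 and Gps2 it lay at the TSS of another gene. Ncor1 was the 1 with a vehicle peak, beside 7.93% and 12.8%. At their own TSS the counts were 6 with FGF19, beside 12.5% and 23.9%, and 1 with vehicle, beside 5.52% and 10.3%, and Kdm1a, the H3K4 demethylase LSD1, had no peak in either list.

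Polycomb repressive complex 2 (PRC2) methylates histone H3 at lysine 27, and 3 of its 4 member genes had a peak, all at the TSS and in the FGF19 list alone. Ezh2, the catalytic subunit, had an FGF19 peak at chr6:47544967-47545311 with a pileup of 31 tags and a fold enrichment of 4.45, its summit 101 bp upstream of a TSS of the gene and in an intron of longer transcripts. Eed, which binds the methylated lysine, had a pileup of 27 and a fold enrichment of 3.47 at chr7:97129162-97129707. Suz12, a structural subunit, had a pileup of 24 and a fold enrichment of 3.54, with the summit 8 bp inside the gene next to the sequence shown. Ezh1, the alternative catalytic subunit, had no peak. Of the 5 Polycomb repressive complex 1 (PRC1) genes, which ubiquitinate histone H2A, Ring1 alone (20.0%) had a peak. It was in the vehicle list, with a pileup of 19 and a fold enrichment of 3.46, and Rnf2, Bmi1, Cbx2 and Cbx7 had none. A vehicle peak at the own TSS was found for 5.52% of all protein-coding genes and 10.3% of those with a CpG-rich TSS. For an FGF19 peak at the own TSS, the list of the PRC2 peaks, these shares were 12.5% and 23.9%. Bap1 and Ezh2 are genes at which the study displayed SHP binding from these same libraries, so their peaks here are not independent evidence.

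The histone lysine methyltransferase genes had peaks at their own TSS and at those of neighbours. Setd1a, an H3K4 methyltransferase, had an FGF19 peak 195 bp upstream of a TSS with a pileup of 22 and a fold enrichment of 3.36. A further FGF19 peak downstream of Setd1a had a fold enrichment of 7.31 at a pileup of 20, and lay in a coding exon of Hsd3b7, an enzyme of bile acid synthesis, 2173 bp from the TSS of that gene. Setd1b had a peak in both lists, but each lay beyond its end, 918 bp (vehicle) and 924 bp (FGF19) inside Hpd, a gene of tyrosine breakdown. Their pileups were 23 and 24 and their fold enrichments 3.56 and 6.82. Ehmt2, the H3K9 methyltransferase G9a, had an FGF19 peak with a pileup of 16 and a fold enrichment of 4.18 whose summit was 35 bp upstream of its TSS and 18 bp from a TSS of C2, a complement gene. Its other FGF19 peak (pileup 23, fold enrichment 4.96) lay 166 bp from a TSS of Zbtb12. Dot1l, the H3K79 methyltransferase, had an FGF19 peak 81 bp upstream of its TSS with a pileup of 27 and a fold enrichment of 4.96, and an intronic one with a pileup of 13 and a fold enrichment of 4.87. Its vehicle peak (pileup 20, fold enrichment 5.35) was a different region, 126 bp from a TSS of the splicing factor gene Sf3a2. Setd2, Setdb1, Ehmt1 and Suv39h1 had no peak.

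Of the other writers, Prmt5, which methylates arginine symmetrically, had an FGF19 peak 218 bp upstream of its TSS with a pileup of 30 and a fold enrichment of 3.94, and with an NF-Y core within 100 bp of the summit. Dnmt3a, a de novo DNA methyltransferase, had a fold enrichment of 6.26 from a pileup of only 17, over a local background of 1.87 tags, the lowest the FGF19 list holds. The maintenance DNA methyltransferase Dnmt1 and the arginine methyltransferase Prmt1 had no peak.

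Sirtuins are deacylases that need NAD+, and all 4 sirtuin genes had a peak at their own TSS in 1 list. Of the 9 classical, zinc-dependent deacetylase genes 2 did (22.2%). Over all protein-coding genes 15.4% had a peak at their own TSS in either list, and 29.3% of those with a CpG-rich TSS. Sirt1 had 3 FGF19 peaks and the highest fold enrichment of any member, 7.45 at a pileup of 32 (chr10:62801305-62801947), with the summit 280 bp downstream of a TSS in a coding exon. Its other peaks, with fold enrichments of 6.89 and 4.99 and pileups of 28 and 31, lay in coding exons 3614 and 4874 bp from the nearest TSS. Sirt2 had a fold enrichment of 2.98 in the FGF19 list (pileup 23), 114 bp from a TSS of its neighbour Nfkbib. Sirt7 had one of 3.39 (pileup 26). Sirt6 was the sirtuin in the vehicle list, with a pileup of 20 and a fold enrichment of 3.63.

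The class I deacetylase Hdac1, which acts in the SIN3, NuRD and CoREST complexes, had an FGF19 peak 93 bp upstream of its TSS with a pileup of 27 and a fold enrichment of 3.89. Hdac3, the deacetylase of the NCoR complex, was counted through an FGF19 peak (pileup 28, fold enrichment 3.64) that lay 63 bp from a TSS of Diap1 and 8536 bp from its own. Hdac11, the class IV enzyme, had a vehicle peak with a pileup of 21 and a fold enrichment of 4.09. Hdac2, Hdac8 and the class II genes Hdac4, Hdac5, Hdac6 and Hdac7 had none, so 0 of 4 class II genes had a peak. Most genes at large had none either, since 4462 of 22380 protein-coding genes had a peak within 5 kb in either list.

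Bap1, the H2A deubiquitinase that opposes PRC1, had an FGF19 peak at chr14:32064228-32064872 with a pileup of 31 tags (95% Poisson interval 21.1 to 44.0) and a fold enrichment of 6.11, above 93.5% of the FGF19 list. Its summit was 21 bp upstream of the TSS, and a TSS of Phf7 lay within 1 kb. Of 12 lysine demethylase genes, 4 (33.3%) had a peak at their own TSS in either list, near the 29.3% of genes with a CpG-rich TSS. Kdm2a and Kdm2b, which act on H3K36, had vehicle peaks with pileups of 16 and 24 and fold enrichments of 3.38 and 3.46, and the Kdm2b summit was 196 bp from a TSS of the calcium channel gene Orai1. Kdm3a and Kdm3b, which act on H3K9, had FGF19 peaks with pileups of 21 and 17 and fold enrichments of 4.17 and 3.82. Kdm4a was counted through a peak at a TSS of St3gal3 (pileup 21, fold enrichment 3.90), and Kdm6b through a peak in its own coding exon, 3056 bp from the TSS (pileup 16, fold enrichment 3.67). Kdm1a, Kdm4b, Kdm5a, Kdm5b, Kdm5c and Kdm6a had no peak.

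SWI/SNF (BAF) is an ATP-driven remodelling complex, and 4 of its 6 member genes (66.7%) had an FGF19 peak at their own TSS. None had a vehicle peak. The FGF19 and vehicle shares were 12.5% and 5.52% over all protein-coding genes, and 23.9% and 10.3% over those with a CpG-rich TSS. Absence from the vehicle list was therefore common among genes at large. Arid1a, a subunit that contacts DNA, had the strongest of the SWI/SNF peaks. It had a pileup of 31 and a fold enrichment of 6.57 at chr4:133310262-133310676, 541 bp upstream of a TSS. The ATPase gene Smarca4 (BRG1) had a pair of FGF19 peaks, with pileups of 30 and 28, whose summits were 119 bp upstream of 1 annotated TSS and 198 bp downstream of another. Their fold enrichments were 2.80 and 3.05, which are with that of Sirt2 the lowest of the members, over backgrounds of 10.1 and 8.51 tags. Smarca2 (BRM), the alternative ATPase, had a pileup of 22 and a fold enrichment of 4.49. Smarcd1 had a pileup of 24 and a fold enrichment of 3.89 with the summit 17 bp inside the gene. Smarcb1 and Smarcc1 had no peak. Chd4, the ATPase of NuRD, had a peak of 25 tags at its TSS in each list, with fold enrichments of 3.38 with vehicle and 3.26 with FGF19.

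All 4 corepressor genes had a peak within 5 kb in at least 1 list, Gps2 only through a peak at the TSS of another gene. Such a peak was found for 4462 of 22380 protein-coding genes and 3722 of 10940 with a CpG-rich TSS. At their own TSS, 3 of the 4 had a peak in either list, beside 15.4% and 29.3%. Sin3a, the scaffold of the SIN3 deacetylase complex, had the highest pileup of any member, 39 tags in the FGF19 list (95% Poisson interval 27.7 to 53.3), with a fold enrichment of 5.02 and the summit 315 bp downstream of a TSS. Ncor1, the nuclear receptor corepressor, had a vehicle peak alone, with a pileup of 21 and a fold enrichment of 3.62. Gps2, a subunit of the NCoR complex, was counted through an FGF19 peak (pileup 27, fold enrichment 3.66) 35 bp from a TSS of Eif5a. Yy1, a zinc finger factor that can repress or activate, had the strongest vehicle peak at a member's own TSS, with a pileup of 29 and a fold enrichment of 4.45 in its first intron. In the FGF19 list it had 2 peaks, 1 over the same intron (pileup 30, fold enrichment 5.70) and 1 that was 60 bp upstream of the TSS (pileup 27, fold enrichment 3.51).

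**Figure D2:**
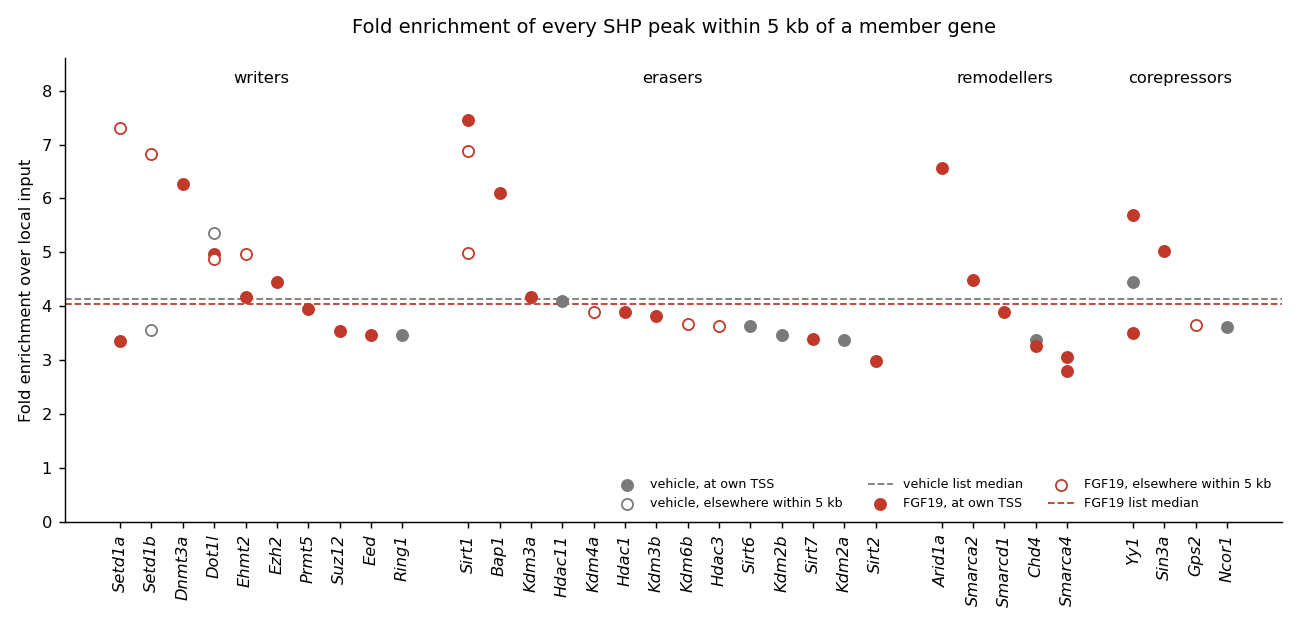
Fold enrichment over local input (vertical axis) of every peak within 5 kb of a member, by gene and class, for the vehicle list (grey) and the FGF19 list (red), with filled points for summits at the gene's own TSS, open points for peaks elsewhere and dashed lines at the list medians of 4.14 and 4.05. Sirt1, Setd1a, Setd1b, Arid1a, Dnmt3a and Bap1 have points above 6, all in the FGF19 list.

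Vehicle member peaks were weak for their list, while FGF19 member peaks had about the list's median strength. The median fold enrichment of the 10 vehicle member peaks was 3.59 (quartiles 3.46 and 3.98), beside 4.14 for the vehicle list and 3.97 for its peaks near any protein-coding TSS, and 2 of 10 lay above the list median. For the 34 FGF19 member peaks it was 4.06 (quartiles 3.57 and 5.01), beside 4.05 and 3.97. The FGF19 member peaks ran from 2.80 to 7.45, and 17 of 34 lay above the list median. Median pileups were 21 tags with vehicle, where the list median was 24, and 26.5 with FGF19, where it was also 24.

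**Figure D3:**
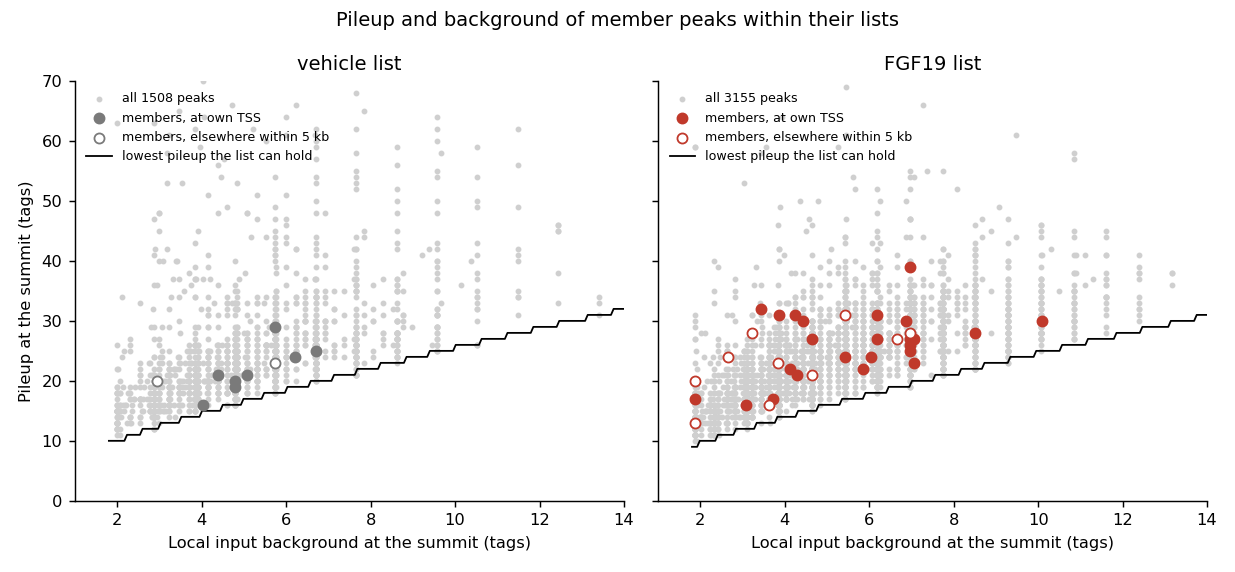
Pileup of tags at the summit (vertical axis) against the local input background in tags (horizontal axis) for all peaks of each list (light grey) and for member peaks at the own TSS (filled) or elsewhere within 5 kb (open), with a line at the lowest pileup that reaches the list's lowest -log10 p-value. Peaks beyond 14 background tags or 70 pileup tags, 49 with vehicle and 47 with FGF19, are not drawn. In both lists some member peaks sit near the line, and the highest reach 29 tags with vehicle (Yy1) and 39 tags with FGF19 (Sin3a).

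Summits at the members' own TSS lie within 1 kb of an annotated TSS by definition, so part of their closeness is built in. In the FGF19 list 24 summits lay at the own TSS, 18 of them within 250 bp, with a median distance of 118 bp. Relative to the nearest own TSS, 16 were upstream and 8 downstream, and 10 lay upstream of the gene itself. In the vehicle list 6 of 8 lay within 250 bp, with a median distance of 168 bp, 4 on each side. In all, 10 FGF19 peaks and 2 vehicle peaks within 5 kb of a member were not at its TSS, and 5 and 2 of these were at the TSS of another gene. Of these, 4 of the 24 FGF19 summits and 1 of the 8 vehicle summits at a member's TSS were also within 1 kb of another gene's TSS, so the peak cannot be given to 1 of the pair.

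**Figure D4:**
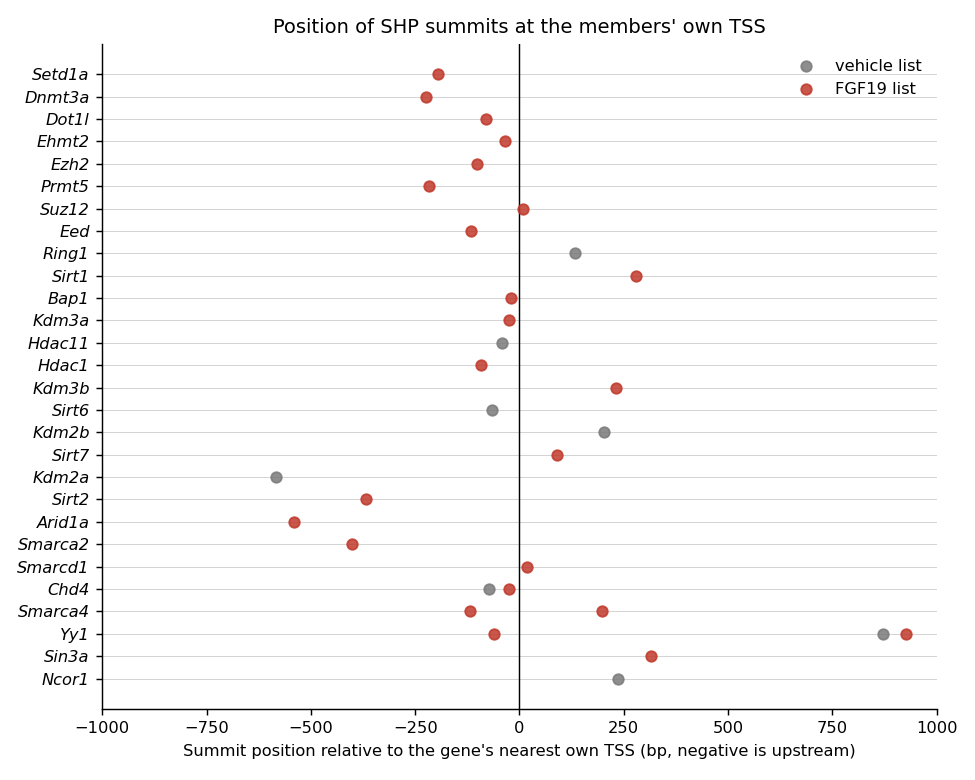
Position of each summit relative to the nearest TSS of the member gene (bp, horizontal axis, negative upstream) for the 28 members with a summit within 1 kb in the vehicle (grey) or FGF19 (red) list. Most points lie within 250 bp of the TSS, and the Yy1 intron points of both lists lie at 872 and 926 bp.

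The lists shared few of these regions. Setd1b, Dot1l, Chd4 and Yy1 had a peak within 5 kb in both, but the Dot1l peaks were different regions, which left 3 common regions. Thus 3 of the 10 vehicle member peaks (30.0%) and 3 of the 34 FGF19 member peaks (8.82%) overlapped the other list by at least 1 bp, beside 45.5% and 21.8% for the whole lists. At the Yy1 intron the pileup was 29 tags with vehicle and 30 with FGF19, a ratio after scaling to tag depth of 1.19 (exact 95% interval 0.691 to 2.06). At Chd4 the pileups of 25 and 25 gave 1.15 (0.634 to 2.09). At Hpd, beside Setd1b, the pileups of 23 and 24 gave 1.20 (0.649 to 2.23). Every interval spanned 1, and the median ratio over all 686 common vehicle peaks was 1.15, so no difference in pileup was detectable at this depth. The ratios of fold enrichment were 1.28 at Yy1, 0.967 at Chd4 and 1.92 at Hpd, where the background was 5.74 tags with vehicle and 2.66 with FGF19.

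A peak in 1 list alone can also come from a value just under the threshold of the other. Each pileup was therefore scaled to the depth and tag extension of the other group and set against the pileup needed to reach that list's lowest -log10 p-value over the same scaled background. All 21 FGF19 peaks at the own TSS of the 20 members without a vehicle peak there would have passed in the vehicle list at equal strength, as would 99.1% of all FGF19 promoter peaks not shared with that list. The 6 vehicle peaks at the own TSS of Ring1, Kdm2a, Kdm2b, Hdac11, Sirt6 and Ncor1 would likewise have passed in the FGF19 list, beside 98.7% of such vehicle peaks. For 8 of the 21 FGF19 peaks, at Ezh2, Dot1l, Prmt5, Dnmt3a, Bap1, Sirt1, Arid1a and Sin3a, the lower limit of the 95% Poisson interval would also have passed. At Sin3a the scaled pileup was 41.4 tags, its lower limit 29.5, and the pileup needed 21. Among all FGF19 promoter peaks not shared with the vehicle list, 28.7% passed at the lower limit. None of the 6 vehicle peaks passed at the lower limit, beside 23.7% of such vehicle peaks. For these 6 genes, and for the remaining 13 FGF19 peaks, the lower limit fell short of the other list's threshold. The limit assumes the same input background in the other group, which was not measured at these positions. It also leaves out counting error in the other library. The peaks were picked for passing in 1 list and not the other, so passing at equal strength was nearly fixed in advance. The scaling therefore cannot show that binding at these genes differed between the groups.

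**Figure D5:**
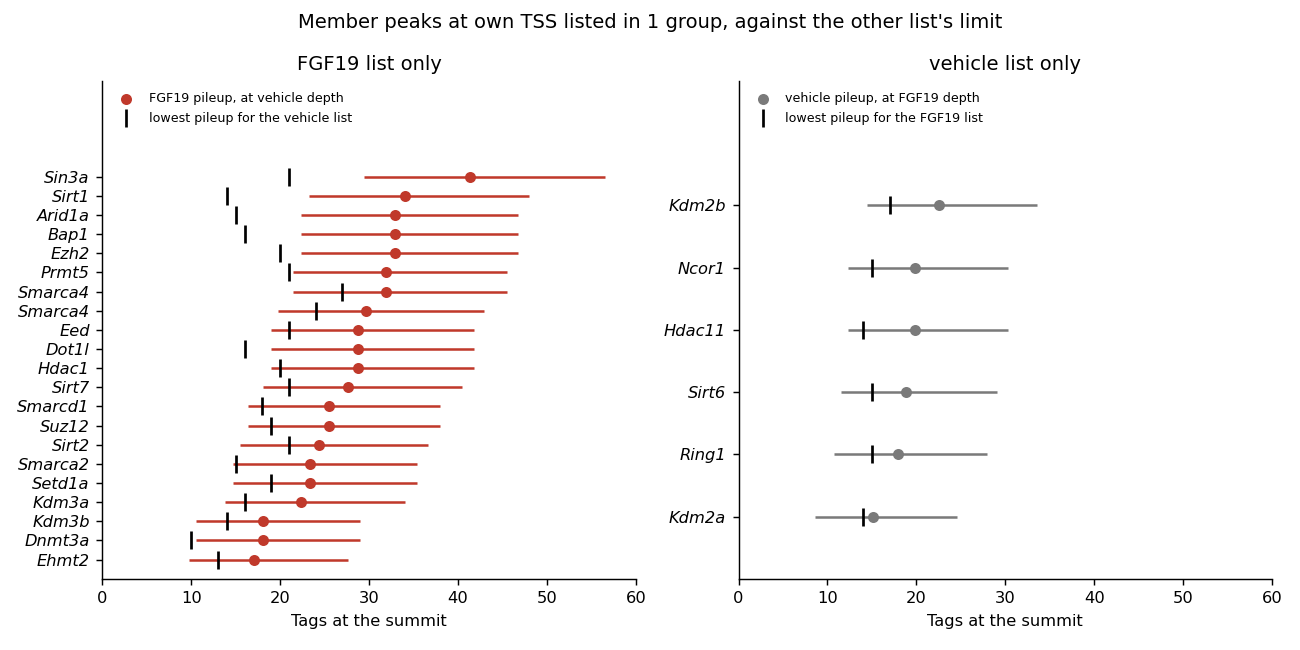
Tags at the summit (horizontal axis) of member peaks at the own TSS in the FGF19 list only (left, red) or the vehicle list only (right, grey), scaled to the depth of the other group, with 95% Poisson intervals as lines and black ticks at the lowest pileup for the other list. In 8 FGF19 rows the whole interval lies to the right of the tick, and in all 6 vehicle rows the interval crosses it.

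The sequence around the members' summits was rich in G and C. The median GC content within 100 bp was 68.9% for the 8 vehicle peaks at a member's TSS and 73.9% for the 24 FGF19 peaks, beside 66.7% and 69.7% for all promoter peaks of the lists. An SP1 core lay within 100 bp of 5 of the 24 FGF19 summits (20.8%, beside 17.1% of promoter peaks and 11.9% of all gene starts), at Kdm3a, Smarcd1, Chd4, Sin3a and Yy1. A YY1/SRE core was found in 3 (12.5%, beside 8.24% and 5.72%), at Ehmt2, Smarcd1 and Yy1. An NRF1 core was found in 2 (8.33%, beside 3.92% and 2.58%), at Hdac1 and Smarca4, and an NF-Y core in 3 (12.5%, beside 11.8% and 12.0%), at Suz12, Prmt5 and Chd4. ZBTB33 and ETS cores were found in 1 each (4.17%), at Yy1 and Kdm3a, beside 2.54% and 11.6% of promoter peaks and 0.92% and 9.38% of gene starts. No FGF19 summit at a member's TSS had the half-site within 100 bp, beside 5.67% of promoter peaks and 8.91% of gene starts. Around the 8 vehicle summits SP1 cores were at Ring1, Kdm2a and Chd4 (37.5%, beside 17.4% of promoter peaks). The NF-Y core at Chd4, the half-site at Kdm2b and the YY1/SRE cores at Yy1 were each at 1 summit (12.5%), beside 12.2%, 7.61% and 12.0% of promoter peaks.

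The Yy1 intron stood out in its number of cores. The window of 100 bp on either side of the vehicle summit held 4 matches to AANATGGC, and 1 of the 1077 promoter peaks of the vehicle list, this one, held as many. The whole FGF19 peak over the intron also held 4, with 2 of them within 100 bp of its summit, and 15 of 2524 FGF19 promoter peaks held at least 2. In the Yy1 sequence shown above the 4 cores lie within one stretch of the intron, 2 read on each strand. A match describes the letters only and does not show that a factor was bound.

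Other chromatin regulators were counted from a list of 128 genes that are not members. Within 5 kb, 25 of them (19.5%) had a vehicle peak and 50 (39.1%) an FGF19 peak, and at the own TSS the counts were 22 (17.2%) and 43 (33.6%). Over all protein-coding genes the shares were 7.93% and 16.3% within 5 kb, and 5.52% and 12.5% at the own TSS. Over those with a CpG-rich TSS they were 12.8% and 28.0%, and 10.3% and 23.9%. Within 5 kb, 30 (54.5%) of the 55 other writers had an FGF19 peak and 10 (18.2%) a vehicle peak. Of the 19 other erasers, 1 (5.26%) had an FGF19 peak and 3 (15.8%) a vehicle peak, the latter near the CpG-rich share. The FGF19 peak was at Hcfc1, counted as an eraser through its grouping with the H2A deubiquitinases, and Hcfc1 also had vehicle peaks. A peak at the own TSS in both lists was found for 11 of the 128 genes. The same held for 579 of 22380 protein-coding genes and 542 of 10940 with a CpG-rich TSS. The 11 were the H3K4 methyltransferase genes Wbp7 and Mll3 with their cofactor Dpy30, the arginine methyltransferase Carm1, the acetyltransferases Myst4 and Myst2, Hcfc1, the remodellers Arid1b and Srcap, the SIN3 subunit Suds3 and the corepressor Ctbp1. The 5 genes with the largest fold enrichment at an own TSS, each taken at its highest peak, were Suds3 with 6.44, Hcfc1 with 5.68 and Arid1b with 5.01 in the vehicle list, and Sap30 with 5.44 and Ash2l with 4.97 in the FGF19 list. Hcfc1 also had 5.28 in the FGF19 list. The members' highest value, 7.45 at Sirt1, was above all of these.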

How the data were processed

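SHP ChIP-seq peaks of vehicle- and FGF19-treated mouse liver were analysed as deposited, and the reads were not used. Per the labels and the methods of the study, the authors processed reads with CASAVA 1.8.2, aligned them to mm9 with Bowtie 1.0.0 allowing 2 mismatches, and used MACS2 2.0.10.20130501 to call peaks over the matching input at a q-value cutoff of 0.05. The deposited signal is the pileup of extended tags (240 bp with vehicle, 260 bp with FGF19) at the summit. The deposited fold enrichment is a ratio of pileup to local input background, and the authors also deposited -log10 p-values, -log10 q-values and the length of each peak. Thresholds on signal make weak sites fall in or out of a list with depth, and the ChIP libraries held 15473647 tags (vehicle) and 13444078 tags (FGF19).

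Background was recovered as (pileup + 1) / fold enrichment - 1, and a Poisson p-value from it differed from the deposited -log10 p by at most 1.8e-04. Peaks were joined to GENCODE M1 genes and sequence of the same build. No p-values between groups were computed. The overlap, distance, motif and interval functions were tested on simulated data and passed 7 of 7 checks. Members and lists were chosen with earlier results of these data known. Every member with a peak within 5 kb was named, those without one by class, and of the other regulators those with a peak at the own TSS in both lists and the 5 of largest fold enrichment there. The CpG-rich background and the limit of detection were added after seeing the data. Scripts ran in Python 3.11.15 with pysam 0.24.0, scipy 1.17.1, pandas 2.3.3, numpy 2.4.6 and matplotlib 3.10.9, beside samtools 1.23.1.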

Additional observations from a re-analysis of the deposited data

How the results depend on the processing

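No paired analysis was possible because each group is 1 pooled library, and for the same reason no library could be left out in turn. Of 73 values under other settings, 61 moved by less than 1.5 times or by less than their spread and 12 moved by more. Some of the 61 could not move. Shortening the FGF19 list, or cutting both lists at the vehicle list's lowest -log10 p, leaves the vehicle values unchanged by construction. With a -log10 q-value of at least 5, members with a peak within 5 kb went to 2 with vehicle and 17 with FGF19, beside 4.12% and 9.08% of protein-coding genes, and members with a peak at the own TSS went to 1 and 12, beside 2.71% and 6.79%. The vehicle share was then under that of all genes. With the FGF19 list shortened to the length of the vehicle list, the FGF19 counts were 15 within 5 kb and 11 at the own TSS, beside 8.06% and 5.98%. Both settings keep fewer peaks by construction, and why the vehicle members lost more than genes at large was not tested, though their median -log10 q-value at the own TSS was 3.73 beside 5.10 for the vehicle list. With the annotated gene start alone, an alternative chosen after seeing the data, the counts at the own TSS were 6 and 18. Beside them stood 5.16% of protein-coding genes with vehicle and 11.5% with FGF19, and the member share was above these in both lists. These shares cover all protein-coding genes and not those with a CpG-rich TSS alone. Cutting both lists at the vehicle list's lowest -log10 p, also chosen after seeing the data, left the member counts as they were. With a 50% reciprocal overlap, 2 of the 3 common regions remained. The depth limits all statements about peaks of under about 30 tags, since most could miss the other list by counting error.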

Other observations

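Some families among the other chromatin regulators were chosen for description after their values were seen. Of 6 further genes grouped here with PRC2, 5 (83.3%) had an FGF19 peak at their own TSS. The fold enrichments were 4.11 at Jarid2, 4.58 at Phf1, 3.51 at Phf19, 4.96 at Rbbp4 and 4.26 at Rbbp7. The Rbbp4 summit was also within 1 kb of a TSS of Zbtb8os. None of these 5 had a vehicle peak at its own TSS. At the own TSS, the vehicle and FGF19 shares were 5.52% and 12.5% over all protein-coding genes, and 10.3% and 23.9% over those with a CpG-rich TSS. A set of genes grouped here with the INO80 and SRCAP remodelling complexes, which exchange histone variants, lay the other way. Of these 5 genes, 4 (80.0%) had a vehicle peak at their own TSS and 1 (20.0%) an FGF19 peak, the latter near the CpG-rich share. Their vehicle fold enrichments at the TSS were 4.42 at Srcap, 3.44 at Ep400, 3.82 at Ruvbl2, and 3.23 and 4.27 for the pair of peaks at Ino80. Srcap was the gene with an FGF19 peak, at 4.19. With 1 library per group the difference between these families was not tested.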
